A study of Homo sapiens with 2 samples.

Results

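The claudins and other genes of the tight junction were taken as all gene probes on the array whose symbol was a numbered claudin (CLDN), tight junction protein (TJP) or MARVELD gene, a PARD3 or PARD6 gene, or OCLN, F11R, CGN or CGNL1. This gave 38 genes with 54 probes, of 25940 gene symbols and 34127 gene probes in all. They comprised 23 claudin genes (29 probes), 5 other transmembrane genes (OCLN, F11R and MARVELD1 to MARVELD3, 9 probes), 5 scaffold genes (TJP1, TJP3, CGN and CGNL1 among them, 8 probes) and 5 polarity genes (PARD3, PARD3B, PARD6A, PARD6B and PARD6G, 8 probes). In the study, 2 established human gastric cancer cell lines, MKN74 and MKN45, received 50 nM siRNA against SET7/9 (gene symbol SETD7), a histone methyltransferase, or a negative control siRNA by electroporation, and RNA was taken after 48 hrs. For each line, Cy5 marked the RNA of the SET7/9 siRNA cells and Cy3 that of the negative control cells, and both were hybridised to 1 two-colour Agilent array. No dye was swapped, no array was repeated, and which SET7/9 siRNA was hybridised is not given in the sources used here. A change in RNA per cell and a change in the mixture of cells cannot be told apart in such bulk RNA. Since each cell line was 1 array, no test was possible within a line, and the error given with a log2 ratio is that of the scanner software's model for the spot, not a replicate SD.

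Tight junctions seal the space between epithelial cells near the apical surface. Claudins form the paired strands, and some of them, such as CLDN2, form paracellular pores for cations while others tighten the barrier. Occludin (OCLN) and the MARVELD proteins share a membrane domain, F11R (JAM-A) is an adhesion molecule of the immunoglobulin family, and the ZO scaffolds, TJP1 (ZO-1) among them, with cingulin (CGN) and paracingulin (CGNL1) link the strands to actin. PARD3 and PARD6 belong to the polarity complex that positions the junction. CLDN18 is the claudin typical of the stomach, whereas CLDN2, CLDN3, CLDN4 and CLDN7 are familiar from intestinal epithelium and intestinal-type lesions.

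The results below turn on a few oligonucleotides of the array, each 60 bases long. Those of CLDN2, CLDN18 and CLDN1 separated the cell lines most, in the direction of MKN45, the pair of CLDN9 gave the only member measured past the knockdown cutoff, and the pair of CLDN12 differed in whether the control channel was measured. The first 30 bases of each are shown as the array design gives them, with no base singled out. Where a gene had several probes they are numbered by rising genome position. Positions are on GRCh37, and the exon or intron they lie in was not analysed here.
CLDN2, chrX:106174032-106174091: agactatctgtaacagtgccaggcacacag
CLDN18, chr3:137752337-137752396: cgcattctctatccaacatttaattgtttg
CLDN1, chr3:190024001-190024060: cccgatgctttctgtggctaaacagatgta
CLDN9 probe 1, chr16:3063001-3063060: ctggcagtgcgtctggagggcctgtgcgag
CLDN9 probe 2, chr16:3063636-3063695: cctgcttggcctcctggtggccatcacagg
CLDN12 probe 1, chr7:90042478-90042537: agaagtttgagccagtcttttcatttgact
CLDN12 probe 2, chr7:90044941-90045000: agccatccaaggaaaataattatttacagt
No word of 20 bases was shared between member probes of different genes, so that none of these oligonucleotides held such a stretch of another member's probe.

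A signal counted as measured where the scanner software marked it as well above background. A log2 ratio was used only where both channels were measured, which held for 18582 probes in MKN74 and 20281 in MKN45. The targeted gene was checked first. SETD7 had a probe at chr4:140427692-140427751 whose log2 ratio was -2.03 in the MKN74 array and -1.95 in the MKN45 array, each with an error of 0.28, while its other probe was at 0.24 (error 0.22) and -0.23 (error 0.21). With normexp background correction and loess the first probe was at -1.36 and -0.99. The 5 epithelial marker genes (EPCAM, KRT8, KRT18, KRT19 and CDH1) were measured in Cy3 in both lines. Of 13 marker genes for fibroblasts, endothelial cells and leukocytes, 3 were measured in Cy3 in MKN74 and 6 in MKN45. COL1A1, CDH5 and CD68 were measured in both lines, with Cy3 signals of 183, 33.8 and 284 in MKN74 and 47.4, 25.2 and 89.5 in MKN45, and VIM, PECAM1 and PTPRC in MKN45 alone, at signals of up to 29.7. In MKN74 the log2 ratio of CD68 was 0.46 (error 0.21). COL1A2, COL3A1, DCN and KDR were not well above background in any channel. The part of such markers in the members' values was not tested.

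Detection differed between members and between lines. Both channels were measured for 31 member probes of 21 genes in MKN74 and for 33 probes of 24 genes in MKN45, only Cy5 was measured for 5 and 4 probes, and neither channel for 18 and 17. No member was measured in Cy3 alone. Over all 34127 gene probes, Cy5 alone was measured for 2025 in MKN74 and 2452 in MKN45. Of all gene probes, 54.6% were measured in Cy3 and 60.4% in Cy5 in MKN74, and 59.7% and 66.6% in MKN45. Of the claudins, 8 were measured in both channels in MKN74 and 11 in MKN45. CLDN5, CLDN6, CLDN8, CLDN10, CLDN11, CLDN14, CLDN16, CLDN17, CLDN20, CLDN22, CLDN25 and PARD3B, 12 genes in all, were not well above background in any channel of either array. CLDN5 is the claudin of endothelium, CLDN11 that of myelin and Sertoli cells, CLDN14 is needed in the inner ear and CLDN16 in the kidney. All 5 of the other transmembrane genes were measured in both channels at each of their 9 probes in both lines.

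**Figure D1:**
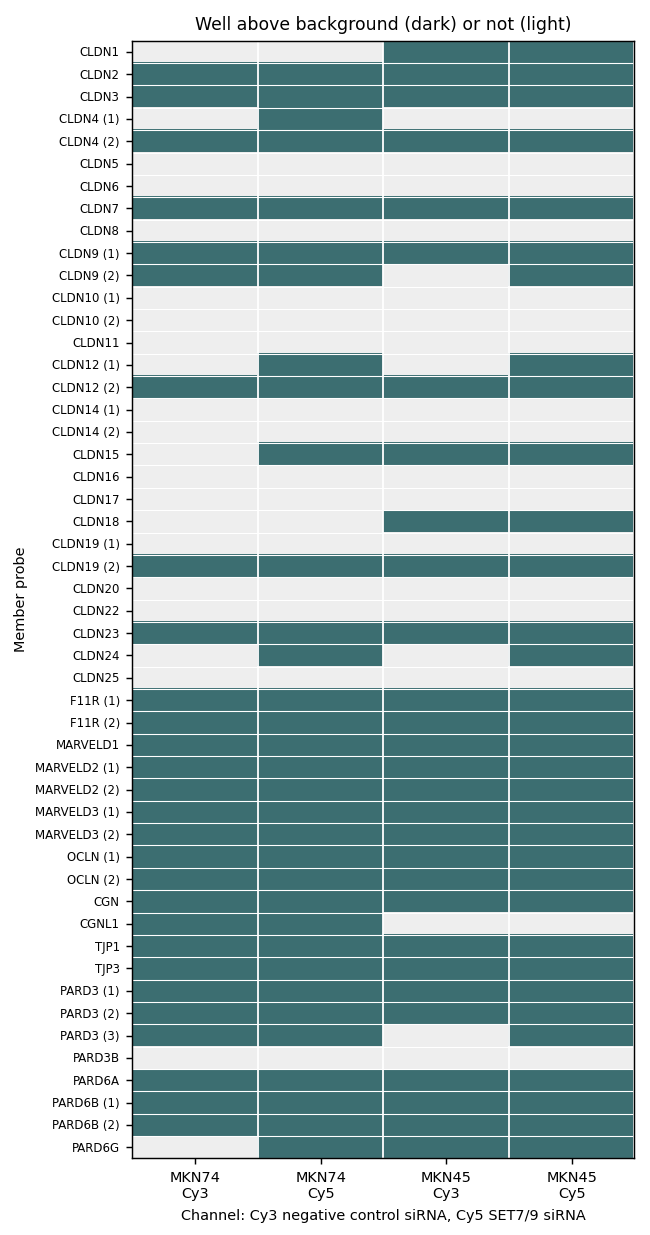
Detection of 50 member probes (rows) in the 4 channels (columns: Cy3, negative control siRNA, and Cy5, SET7/9 siRNA, of each cell line), dark where the signal was well above background, with numbers in parentheses telling probes of a gene apart. CLDN1 and CLDN18 are dark in MKN45 alone, CGNL1 in MKN74 alone, and 15 probes are light throughout.

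In control cells, the 2 lines held different claudin transcripts. MKN45 held CLDN2, CLDN18 and CLDN1 at levels that MKN74 did not reach, while MKN74 held more CLDN4, CLDN7, CLDN9, TJP1, CGNL1, PARD3 and PARD6B. Levels were compared as the log2 Cy3 signal minus the 75th percentile of all gene probes of the array, MKN45 minus MKN74, and no test was possible with 1 array a line. Of the 36 member probes (25 genes) measured in Cy3 on at least 1 array, 7 probes (7 genes) were at least 2-fold higher in MKN45, where 22.6% of all such probes were, and 16 probes (10 genes) were at least 2-fold higher in MKN74, where 17.5% of all such probes were. Where the dim array was not well above background, the difference counted only as a bound, for which the dim value was raised to the lowest Cy3 signal measured on that array or left at its own value, whichever was higher. With Aquantile scaling the shares of all probes were 17.7% and 22.2%, and the members numbered 6 and 16. The median difference over all probes measured in Cy3 on both arrays was 0.03 with the main scaling and -0.13 with Aquantile scaling, and none of the 23 member probes past 2-fold changed direction under any of the scalings tried.

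CLDN2, the pore-forming claudin, had a Cy3 signal of 30.2 and a Cy5 signal of 35.8 in MKN74, and of 10577 and 11447 in MKN45. Both channels of MKN45 stood far above both of MKN74, and the scaled Cy3 level was 398-fold higher in MKN45. Under the other scalings and in Cy5 this ranged from 118-fold to 421-fold, the lowest after normexp background correction with loess. CLDN18 had signals of 3.56 (Cy3) and 2.15 (Cy5) in MKN74, neither well above background, against 880 and 781 in MKN45. Its Cy3 level was at least 57.5-fold higher in MKN45, from scaled levels of -7.16 and 0.98 on the log2 scale. CLDN1, a barrier-forming claudin, had 7.69 and 10.4 in MKN74, again not well above background, and 639 and 676 in MKN45, a difference of at least 41.7-fold, from scaled levels of -6.05 and 0.51. With normexp, loess and Aquantile scaling the smallest bounds were 13.9-fold for CLDN18 and 8.81-fold for CLDN1. CLDN15 had a Cy3 signal of 14.5 in MKN74, not well above background, and 86.4 in MKN45, at least 5.64-fold higher, from scaled levels of -5.13 and -2.37, but 1.71-fold with normexp, loess and Aquantile scaling.

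The other direction was led by CLDN9, CGNL1 and TJP1. CLDN9 probe 1 had a Cy3 signal of 171 in MKN74 and 25.2 in MKN45, 5.97-fold higher in MKN74. Its probe 2 had 386 and 18.5, the latter not well above background, with scaled levels of -0.40 and -4.60. The latter value was left as it stood, so the 18.4-fold higher level in MKN74 is no minimum. Both probes thus put CLDN9 higher in MKN74. CGNL1 had a Cy3 signal of 249 in MKN74 and 3.29 in MKN45, not well above background, at least 13.8-fold higher in MKN74, from scaled levels of -1.03 and -7.09. The related scaffold CGN went the other way by less than 2-fold, at 3346 in MKN74 and 5378 in MKN45, a scaled difference of 0.87 that passed 2-fold with the Aquantile scalings. TJP1 had 5228 in MKN74 and 1008 in MKN45, a scaled level 4.56-fold higher in MKN74. With normexp, loess and Aquantile scaling the values were 2.92-fold and 5.16-fold for the CLDN9 probes and 4.65-fold for CGNL1.

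CLDN3, CLDN4 and CLDN7 were measured in both lines and differed less. CLDN4 probe 2 had a Cy3 signal of 81973 in MKN74 and 26080 in MKN45, a scaled level 2.77-fold higher in MKN74. CLDN7 had 13611 and 4525, 2.65-fold higher in MKN74. CLDN3 had 8930 and 15053 and differed by 0.94 on the scaled log2 scale towards MKN45, under 2-fold here but past it with median centring and in Cy5. CLDN12 probe 2, CLDN19 probe 2 and CLDN23 differed by 0.38, -0.13 and 0.51, all within 2-fold.

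Members with several probes gave the same direction between lines where they passed 2-fold. OCLN was 2.04-fold and 2.13-fold higher in MKN74 at its 2 probes, and F11R 2.09-fold and 2.10-fold. Each of these 4 values fell under 2-fold with at least 1 other scaling or in Cy5, to between 1.84-fold and 1.91-fold. PARD6B differed by -1.97 and -1.58 on the scaled log2 scale at its 2 probes, both higher in MKN74. PARD3 was 2.84-fold, 2.47-fold and at least 2.11-fold higher there at probes 1 to 3, of which probe 2 fell to 1.93-fold in Cy5 and probe 3 to 1.56-fold with normexp, loess and Aquantile scaling. MARVELD1 was 2.94-fold higher in MKN74, whereas MARVELD2, MARVELD3 and PARD6A stayed within 2-fold. PARD6G, a paralogue of PARD6B, had a Cy3 signal of 14.6 in MKN74, not well above background, and 209.6 in MKN45, at least 13.7-fold higher, from scaled levels of -5.12 and -1.09, and at least 3.29-fold with normexp, loess and Aquantile scaling. TJP3 was 2.31-fold higher in MKN45, under 2-fold with the Aquantile scalings.

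**Figure D2:**
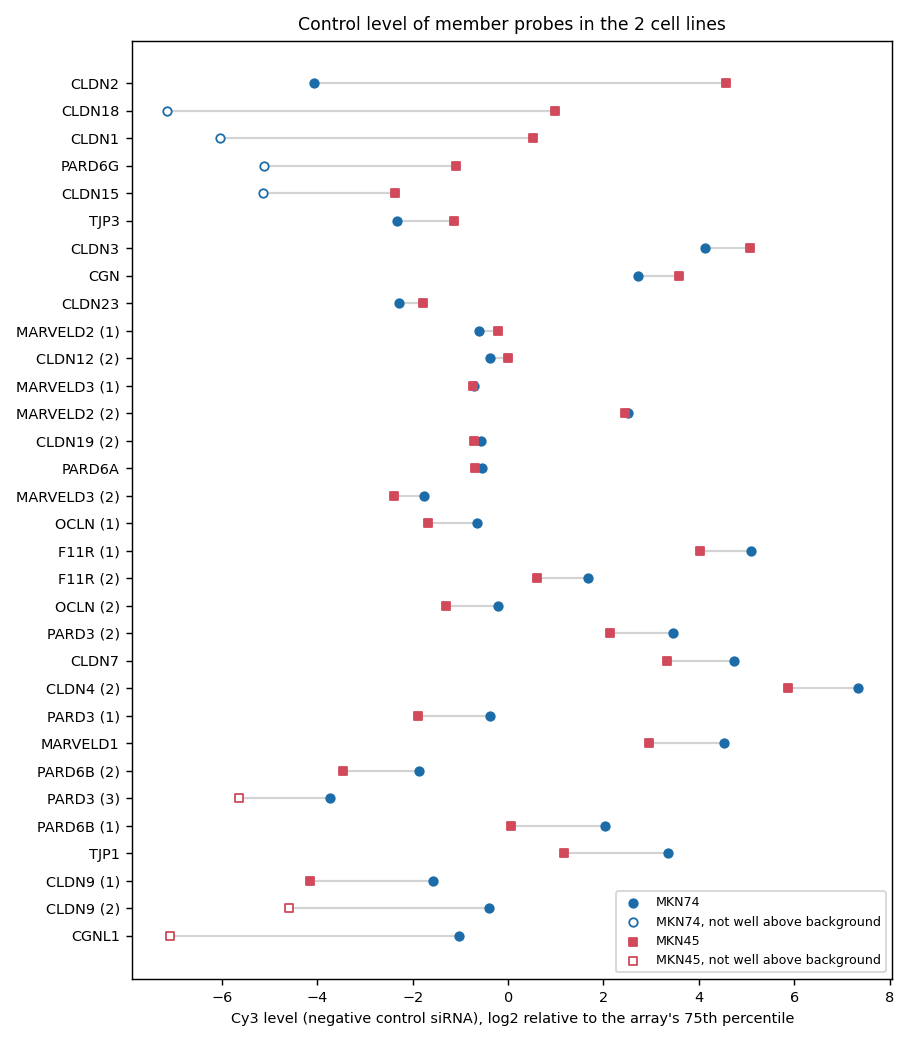
Scaled Cy3 level (log2, relative to the 75th percentile of each array) of 32 member probes measured in control cells of at least 1 line, blue circles for MKN74 and red squares for MKN45, open where not well above background, ordered by the difference. CLDN2, CLDN18 and CLDN1 lie furthest towards MKN45 (levels of 4.56, 0.98 and 0.51 there), CGNL1 and CLDN9 furthest towards MKN74.

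In Cy5, which shares the spots of the same arrays and is no independent repeat, 27 of the 28 member probes measured in all 4 channels differed between lines in the same direction as in Cy3. The difference changed by at most 0.47 on the log2 scale.

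The upstream sequences of CLDN1, CLDN2 and CLDN18 are shown because these were the claudins found high in MKN45 and at or near background in MKN74. They are the 250 bases before a RefSeq start site on GRCh38.p14, read on the gene's own strand. Capitals mark AGATAA or CACCTG on either strand, a form of the word of GATA factors and a form of that of Snail and ZEB factors. Other forms of these words were not searched. For CLDN2 and CLDN18, each with 2 start sites in the table, the upstream one is shown.
CLDN1, chr3:190322447-190322696, minus strand: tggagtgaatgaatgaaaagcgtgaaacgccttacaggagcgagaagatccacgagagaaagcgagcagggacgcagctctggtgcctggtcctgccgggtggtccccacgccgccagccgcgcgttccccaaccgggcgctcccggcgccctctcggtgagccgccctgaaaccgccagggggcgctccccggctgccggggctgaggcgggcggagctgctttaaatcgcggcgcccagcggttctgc
CLDN2, chrX:106899914-106900163, plus strand: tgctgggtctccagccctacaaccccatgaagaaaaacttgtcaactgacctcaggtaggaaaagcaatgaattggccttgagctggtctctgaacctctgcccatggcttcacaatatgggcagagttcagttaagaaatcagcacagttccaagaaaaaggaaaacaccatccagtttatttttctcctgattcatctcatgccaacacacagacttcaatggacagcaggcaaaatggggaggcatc
CLDN18, chr3:137998566-137998815, plus strand: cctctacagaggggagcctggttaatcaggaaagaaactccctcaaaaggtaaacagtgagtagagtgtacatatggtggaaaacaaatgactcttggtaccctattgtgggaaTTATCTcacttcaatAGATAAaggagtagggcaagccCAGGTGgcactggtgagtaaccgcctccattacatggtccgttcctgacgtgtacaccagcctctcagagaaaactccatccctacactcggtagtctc
The CLDN1 window held 28 CG pairs, the CLDN2 window 0 and the CLDN18 window 4, against a median of 11 over all promoters of this length. AGATAA was in 9.17% and CACCTG in 17.5% of all 35116 promoters in the table. The shown windows of CLDN1 and CLDN2 held neither word, and that of CLDN18 held both. The window of the other CLDN18 start site, chr3:138009915-138010164, held neither word and 10 CG pairs. That of the other CLDN2 start site, chrX:106918110-106918359, held neither word and 1 CG pair. For both genes, the array values were not assigned to either start site.

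SET7/9 siRNA left nearly all measured members within 1.5-fold of the control. In MKN74, 0 of 31 member probes lay 1.5-fold or more below the control and 0 lay that far above it, where 1.45% and 0.64% of all measured probes were. In MKN45, 1 of 33 member probes lay that far below and 0 that far above, where 1.62% and 0.814% of all measured probes were. With so few members, these counts are near the shares over all probes. Member log2 ratios lay between -0.45 and 0.24 in MKN74 and between -0.84 and 0.30 in MKN45, and their median error was 0.21 in both lines. The ratio was further from 0 than 2 errors for 1 member probe in each line, CLDN9 probe 1 in both cases. Of all measured probes, 3.69% in MKN74 and 3.66% in MKN45 lay beyond 2 errors, so these counts are near that share too.

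**Figure D3:**
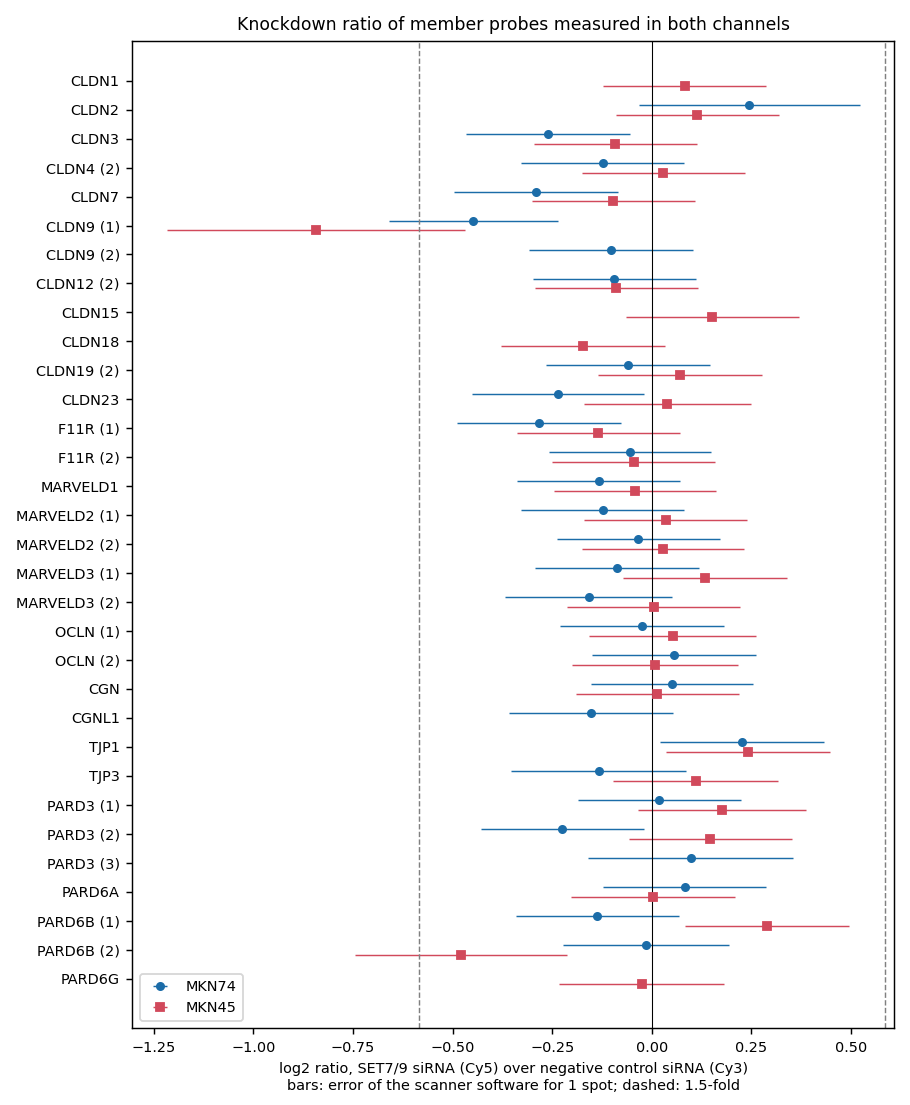
Log2 ratio of SET7/9 siRNA over negative control siRNA for member probes measured in both channels, blue circles for MKN74 and red squares for MKN45, with bars for the spot error of the scanner software and dashed lines at 1.5-fold. CLDN9 probe 1 at -0.84 in MKN45 is the only point beyond a dashed line.

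Among probes measured in both channels, CLDN9, a close neighbour of CLDN6 in sequence and location, was the only member past the cutoff. Its probe 1 had signals of 171 (Cy3) and 125 (Cy5) in MKN74, a log2 ratio of -0.45 (error 0.21), and of 25.2 and 14.1 in MKN45, a log2 ratio of -0.84 (error 0.37). Probe 2 had 386 and 360 in MKN74, a log2 ratio of -0.10 (error 0.21), and 18.5 and 20.2 in MKN45, where Cy3 was not well above background. The probes thus differed, and only probe 1 passed the cutoff. With normexp and loess its log2 ratio in MKN45 was -0.17, short of the cutoff.

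Apart from CLDN9 probe 1, the claudin probes measured in both channels in both lines stayed within 1.5-fold of the control. CLDN23 was at -0.24 (error 0.22) in MKN74 and at 0.04 (error 0.21) in MKN45. The log2 ratio of CLDN3 was -0.26 (error 0.21) in MKN74 and -0.09 (error 0.20) in MKN45. CLDN4 probe 2 was at -0.12 and 0.03, with signals of 81973 and 75245 in MKN74 and 26080 and 26601 in MKN45. CLDN7 was at -0.29 (error 0.21) and -0.10 (error 0.20). CLDN3, CLDN4 and CLDN7 lay within 1.5-fold in both lines, and within 1 error of 0 in MKN45, as did CLDN4 in MKN74. CLDN2 stood at 0.24 in MKN74, where its error was 0.28, and at 0.11 (error 0.20) in MKN45. CLDN18, measured in MKN45 alone, was at -0.17 (error 0.20) there, and CLDN1, also measured in MKN45 alone, at 0.08 (error 0.20). The pattern that set the lines apart in these claudins was therefore present with either siRNA.

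Of the remaining transmembrane members, F11R was at -0.28 (error 0.21) and -0.06 (error 0.20) at its probes 1 and 2 in MKN74 and at -0.13 and -0.05 in MKN45. OCLN was at -0.02 and 0.06 in MKN74 and at 0.05 and 0.01 in MKN45. Neither gene left the span of 1.5-fold at any probe. The 9 probes of this group had a median of -0.09 in MKN74 and 0.01 in MKN45. TJP1, the ZO-1 scaffold, was above 0 in both lines, at 0.23 (error 0.21) in MKN74 with signals of 5228 and 6117, and at 0.24 (error 0.21) in MKN45 with 1008 and 1193. CGN was at 0.05 and 0.01.

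The widest disagreement between probes was that of 1 polarity gene, PARD6B, in MKN45. PARD6B probe 1 had signals of 467 (Cy3) and 570 (Cy5) in MKN45, a log2 ratio of 0.29 (error 0.21), while probe 2 had 40.7 and 29.2, a log2 ratio of -0.48 (error 0.27). In MKN74 the same probes were at -0.14 and -0.01. PARD3 was at 0.02, -0.22 and 0.10 at probes 1 to 3 in MKN74 and at 0.18 and 0.15 at probes 1 and 2 in MKN45. PARD6A was at 0.08 and 0.00, and PARD6G, measured in both channels in MKN45 alone, at -0.03.

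Where only Cy5 was well above background, a ratio has a lower bound only. For this the channels were scaled across the arrays by Aquantile and the Cy3 value was raised to the lowest Cy3 signal measured on that array where it lay below it, and without a dye swap the bound is open to dye bias. Of such member probes, 0 of 5 in MKN74 and 1 of 4 in MKN45 were at least 1.5-fold higher with SET7/9 siRNA by the bound, where 2.86% and 4.89% of all Cy5-only probes were. The 1 was CLDN12 probe 1, with signals of 15.9 (Cy3) and 32.3 (Cy5) in MKN45, 2.04-fold higher. Its Cy3 there did not lie below the lowest measured signal and was left as it stood. That value is therefore the plain ratio (error 0.34 on the log2 scale) and no minimum. In MKN74 this probe had 10.97 and 22.2, at least 1.27-fold higher. With normexp and loess the log2 ratio of probe 1 was 0.12 in MKN45 and 0.20 in MKN74, short of the cutoff. Neither value thus holds under that background correction. Probe 2 of CLDN12 had 449 and 422 in MKN45 and 392 and 367 in MKN74, log2 ratios of -0.09 (error 0.20) in both lines. Probe 2 thus lay within 1 error of 0 in both lines and did not repeat the higher value of probe 1.

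Over genes with at least 2 measured probes, the range of log2 ratios within a gene had a median of 0.18 in MKN74 (8 genes) and 0.09 in MKN45 (7 genes). Over all genes with several measured probes the median range was 0.16 and 0.17. The largest range among the members was 0.77, for PARD6B in MKN45, the only member whose probes differed by over 0.58. Of all genes with several measured probes, 3.67% in MKN74 and 5.24% in MKN45 had such a range. Repeated spots of a probe had a pooled SD of 0.087 in MKN74 and 0.099 in MKN45, but every member probe was printed once.

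**Figure D4:**
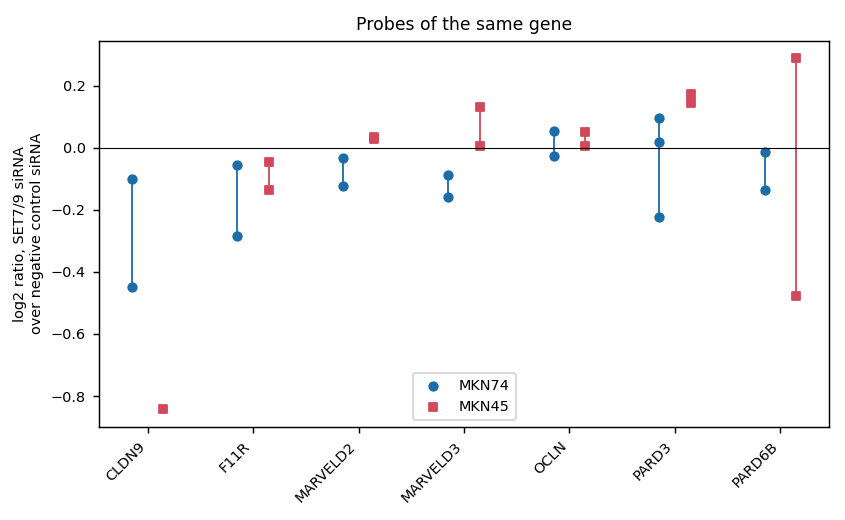
Log2 ratios of the measured probes of member genes with at least 2 of them in a line, joined by a line per gene, blue circles for MKN74 and red squares for MKN45. PARD6B in MKN45 spans from -0.48 to 0.29, the widest of all, while OCLN and MARVELD2 are narrow in both lines.

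The lines differed in the sign of the small ratios. Of the measured member probes 23 of 31 were below 0 in MKN74, or 74.2% against 51.6% of all measured probes, and 12 of 33 in MKN45, or 36.4% against 50.3%. The median log2 ratio of the members was -0.09 in MKN74 and 0.03 in MKN45, against -0.00664 and -0.00107 over all probes. In MKN74, 8 of 9 claudin probes and 8 of 9 probes of the other transmembrane genes were below 0, as were 4 of 7 scaffold and 3 of 6 polarity probes, whose medians were -0.00506 and 0.00166. Of the 28 member probes measured on both arrays 21 had the higher ratio in MKN45, where 49.5% of all probes measured on both did, and the median difference was 0.14. The widest differences were those of PARD6B, 0.43 at probe 1 and -0.46 at probe 2, and none was over 0.5. Most of these values lay within 1 error of 0 (23 of 31 in MKN74 and 27 of 33 in MKN45), the probes of a line share 1 hybridisation, and the difference between lines was not tested.

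**Figure D5:**
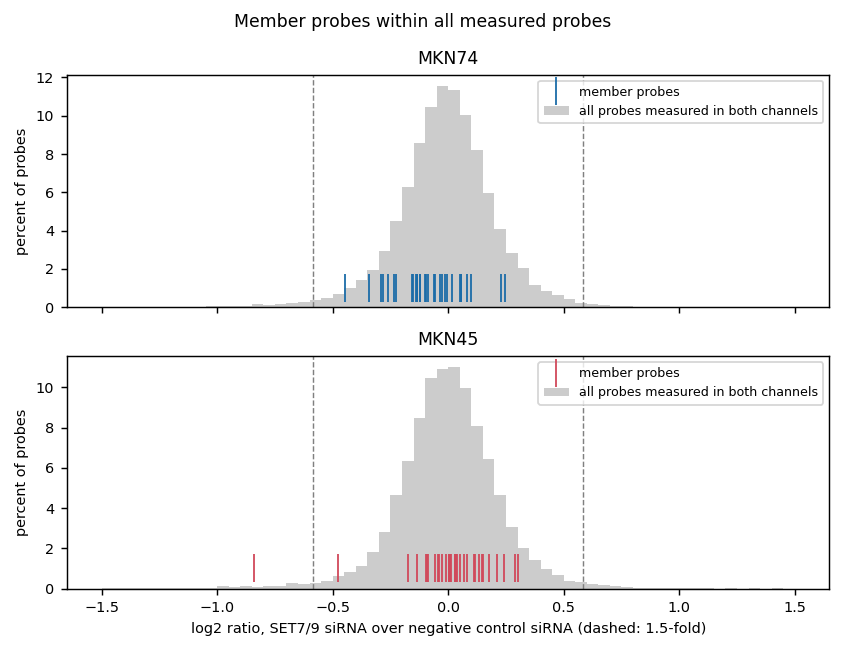
Histogram of the log2 ratio (SET7/9 siRNA over negative control siRNA) of all probes measured in both channels (grey, percent of probes per bin) with the member probes as coloured ticks, MKN74 above and MKN45 below, and dashed lines at 1.5-fold. The ticks lie inside the bulk of the histogram except for CLDN9 at -0.84 in MKN45, and in MKN74 23 of 31 lie left of 0.

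The ratios of both lines were also fitted together against 0 in limma, with the lines taken as replicates. Of 28 member probes of 20 genes tested 0 had a Benjamini-Hochberg adjusted p under 0.05 in either direction, where 0.0115% of 17362 probes were called lower and 0% higher. At an unadjusted p under 0.05 there were 3 of 28 member probes, against 16.5% of all probes. These were CLDN9 probe 1 (mean log2 ratio -0.65, SE 0.12, adjusted p = 0.24 by limma), TJP1 (0.23, SE 0.07, adjusted p = 0.27 by limma) and F11R probe 1 (-0.21, SE 0.08, adjusted p = 0.30 by limma). With normexp and loess, 2 member probes were called lower, of CLDN3 and CLDN9, and 10.5% of all probes were called.

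Genes that work with the tight junction were read from fixed lists. Of the 27 tight-junction partners on the array (JAM, MAGI, Crumbs and atypical protein kinase C genes among them), 1 of the 27 probes measured in MKN74 lay 1.5-fold or more below the control, as did 1 of the 33 measured in MKN45, and 0 lay that far above, with medians of -0.00392 and 0.00442. Over all measured probes 1.45% and 1.62% lay that far below and 0.64% and 0.814% that far above, and with so few probes the counts of these lists are not told apart from those shares. They were AMOT, an angiomotin, at -0.62 (error 0.23) in MKN74 and 0.17 in MKN45, and MPDZ, the MUPP1 scaffold, at -0.69 (error 0.31) in MKN45, where it had signals of 32.7 and 20.2, and not measured in MKN74, while its other probe was at -0.05 (error 0.23) in MKN45. Of 18 adherens junction probes measured in each line, 1 was at least 1.5-fold higher in MKN74, PVRL1 (nectin-1) at 0.64 (error 0.26), and it was at 0.11 in MKN45. None of 8 measured desmosome probes passed the cutoff in either line. Of the transcription factors known to act on junction genes, 0 of the 13 probes (11 genes) measured in MKN74 passed it and 1 of the 22 probes (16 genes) measured in MKN45, a probe of GRHL1 (signals of 39.1 and 18.7) at -1.07 (error 0.32), while the other GRHL1 probe (231 and 195) was at -0.24 in MKN45.

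Some of the same transcription factors stood at different levels in control cells of the lines. Of 22 probes measured in Cy3 on at least 1 array 9 were at least 2-fold higher in MKN45 and 5 at least 2-fold higher in MKN74, where 22.6% and 17.5% of all such probes were. The following were picked after their values were seen. GATA6, a factor of foregut epithelium, had a Cy3 signal of 4.06 in MKN74, not well above background, and 3410 in MKN45, at least 223-fold higher. SOX2, a factor of gastric epithelium, had 3.52, not well above background, and 972, at least 63.5-fold higher. GRHL3, a grainyhead factor of epithelial barriers, had 1007 in MKN74 and 40.6 in MKN45, 21.8-fold higher in MKN74, and SNAI1, a repressor of junction genes, 890 and 115, 6.81-fold higher in MKN74. CDX2, an intestinal factor, had 861 and 748 and differed by -0.02 on the scaled log2 scale. The levels of these factors are given for the main scaling alone, and the bounds of GATA6 and SOX2 were not examined under the others. The part of these factors in the members' levels was not tested.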

How the data were processed

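Total RNA of MKN74 and MKN45 cells was hybridised to 2 arrays on 1 slide, scanned together. The authors deposited the output of Agilent Feature Extraction 10.7.3.1, which holds each spot's intensity per channel, after spatial detrending, background subtraction, surrogate values for signals at background and dye normalization. Per the same deposited files, each spot has a log10 ratio (Cy5 to Cy3), that ratio's error, and the error model's p-value. A deposited value table with log2 ratios to 2 decimals served as an alternative. Spots of a gene probe were averaged without those marked as outliers (549 in MKN74 and 534 in MKN45). No gene spot was saturated. In all, 54.6% (Cy3) and 60.4% (Cy5) of probes were well above background in MKN74 and 59.7% and 66.6% in MKN45. A probe was measured in a channel where at least 50% of its spots were well above background. The number of arrays limits the precision.

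The cutoff of 1.5-fold is the study's. The common response was fitted with limma 3.58.1 in R 4.3.3 (1 residual degree of freedom) with Benjamini-Hochberg adjustment. Its p-values rest on the spread between 2 lines, with no replicate within a line. Each probe's variance was drawn towards a prior from all tested probes (3.44 prior degrees of freedom). For this fit, 17362 probes were simulated with normal noise whose spread was drawn from that prior. Of 200 probes changed by 2 on the log2 scale on both arrays, 99.5% were recovered, and 6.13% of the calls were false. That change is larger than that of any measured member, and the recovery of smaller changes was not tested. Alternatives covered background correction, normalization, filters, cutoffs, scaling and the deposited table. Tables were made in Python 3.11.15. Members and lists were chosen with earlier results of these data known. A rule for naming genes took SETD7, members past a cutoff, by value or bound, or 4-fold apart between lines, and the 3 highest and 3 lowest mean ratios. It also took members with disagreeing probes, 11 members named whatever their values, and list genes past the cutoff. Some further members, the marker genes, and the transcription factors compared between lines were named outside that rule. Those factors were picked after their values were seen. RefSeq accessions of 45 of 46 member probes were found in the GRCh38.p14 table, all with the same symbol. Promoter sequences are from a RefSeq table (GRCh38.p14), and those used here covered under 80% of members, so promoter composition was not compared between groups of members. Of the members and list genes, 2 are not reported by name here, and they remain in the counts and medians.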

Additional observations from a re-analysis of the deposited data

How the results depend on the processing

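No paired analysis was possible because each line was 1 array, other than the pairing of both siRNAs on an array that every log2 ratio and the limma fit use, and no replicate could be left out. The counts of member probes past 1.5-fold and their medians kept within 1.5 times under median centring and with outlier spots kept. The counts between lines did so under the scalings tried, in Cy5 and with no filter, from 5 to 10 higher in MKN45 and from 12 to 16 in MKN74, and were not recomputed with outlier spots kept. With no filter there were 3 lower and 4 higher in MKN74 and 4 lower and 5 higher in MKN45, and the median in MKN74 was 0, since the scanner software gives many unmeasured spots a ratio of 0. Keeping probes measured in at least 1 channel gave 3 higher in each line. The 1 lower probe in MKN45 (CLDN9) was lost, leaving 0, with normexp and loess, with an error-model p under 0.01 and with a 2-fold cutoff, and its log2 ratio after normexp and loess was -0.17. The same normalization raised the limma count of members to 2, and the cause was not tested. Taking the brightest probe of a gene rather than the mean of its probes kept 1 gene past the cutoff in MKN45 and 0 in MKN74. Signals near background limit CLDN9, CLDN12, CLDN15 and the bounds. Low Cy3 signals also limit CLDN2 in MKN74 (30.2) and PARD6B probe 2 in MKN45 (40.7). Slide and scan were shared and cannot separate the arrays.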
